A study of Caenorhabditis elegans with 25 samples.

Results

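RNA of 10 genes that make meiotic DNA breaks and turn them into crossovers was followed through 25 RNA-seq libraries of Caenorhabditis elegans in 9 groups. They were chosen by name, from the known meiotic recombination pathway, and all 10 were found among the 45461 gene identifiers of the count files. They were spo-11 (T05E11.4), dsb-1 (F08G5.1), dsb-2 (F26H11.6), mre-11 (ZC302.1), rad-50 (T04H1.4), rad-51 (Y43C5A.6), him-14 (ZK1127.11), msh-5 (F09E8.3), cosa-1 (Y71H2AM.7) and zhp-3 (K02B12.8). By the WBcel235 annotation none lies on the X chromosome.

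In meiotic prophase, germ cells cut their own DNA on purpose and repair some of the cuts as crossovers, the exchanges that hold each pair of homologous chromosomes together until they separate. In C. elegans the whole sequence runs in the distal gonad arm, where nuclei pass from mitosis through the pachytene stage toward the bend of the gonad. Each chromosome pair normally receives a single crossover, and a male, which has an unpaired X, must repair breaks on that chromosome without a homologous partner.

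The tissue was distal gonad arms of day 1 adults, cut at the bend and pooled, or sperm released from males. Male germlines came from mes-3(bn35) animals born to mes-3/hT2-GFP mothers, which still had their mothers' MES-3 but made none themselves (3 libraries), from him-8(e1489) (4 libraries) and from the wild type N2 (2 libraries). Sperm came from the same mes-3 and him-8 strains (3 libraries each). Oogenic germlines came from fem-2(b245ts), raised at 15 °C and moved to 20 °C for 24 h from the L4 larval stage (3 libraries), and from N2 (3 libraries). The last pair of groups was oogenic germlines of mes-3; fem-2 double mutant offspring, whose mothers supplied MES-3 and which inherited sperm chromosomes without H3K27me3 from mes-3 fathers (M+P-, 2 libraries) or with it from mes-3/hT2-GFP fathers (M+P+, 2 libraries), all raised at 15 °C. The other groups grew at 20 °C. MES-3 is a subunit of the complex that places the repressive mark H3K27me3 on histones. HIM-8 is a zinc finger protein that X chromosomes need in order to pair. Animals of this fem-2 allele make oocytes but no sperm at the restrictive temperature. To feminize fem-2 worms for its crosses, the paper moved their mothers to 24 °C. No library here is listed at that temperature, and whether these animals lacked sperm was not tested. Males have 1 X chromosome and the oogenic animals 2, so sex, X dosage and cell type change together. The study calls the libraries of a group biological replicates.

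Total gene counts ran between 1078195 and 18617543 per library. Summed levels of 8 spermatogenesis genes lay between 2675 and 6082 CPM (a gene's counts scaled to 1000000 gene counts per library) in the male and sperm libraries, against 1.86 to 45.8 CPM in the oogenic ones. The muscle marker sum of him-8 male 2 was 3301 CPM, against 239 to 287 CPM in the other him-8 males, and its intestine and hypodermis sums were the highest of that group too. In sperm the muscle sum lay between 2577 and 6387 CPM, against 88.3 to 186 CPM in mes-3 male germlines. RNA of mes-3 itself was at 26.9 to 40.2 CPM in mes-3 male germlines, against 12.98 to 29.8 CPM in him-8 male germlines, so the level of its RNA does not check the strain labels.

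All 10 genes were read in every group. In 4 of the 10, dsb-1, dsb-2, mre-11 and zhp-3, the mean CPM of every oogenic and offspring group lay above that of every male germline group, and those above both sperm groups. In the other 6 this order was broken, in 4 of them by mes-3 male germlines, which for rad-51 had the highest mean of all groups, 136 CPM, and for rad-50, msh-5 and him-14 a higher mean than N2 oogenic germlines. The mean of the highest group was 2.24 times that of the lowest for rad-51, the smallest span of the 10, and 11.4 times for dsb-2, the largest. In 8 of 10 genes the group with the lowest mean was him-8 sperm. The exceptions were spo-11, lowest in N2 males, and him-14, lowest in mes-3 sperm. The share of all genes with this order of groups, or with their lowest mean in him-8 sperm, was not computed. In bulk tissue, fewer cells of a kind and less RNA per cell cannot be told apart.

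**Figure D1:**
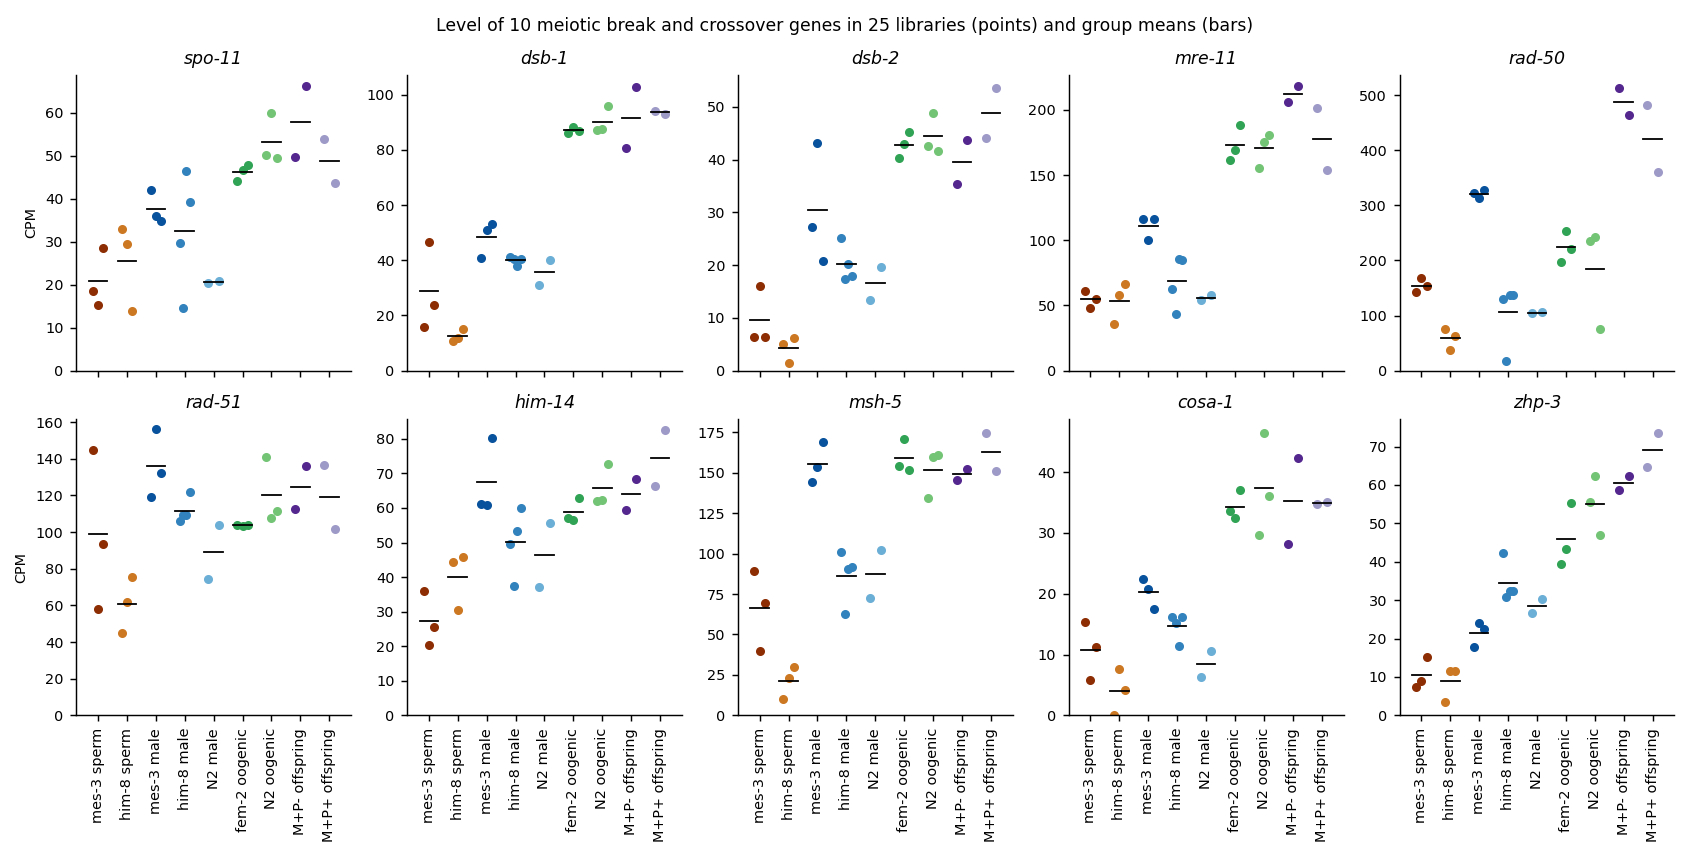
CPM of each of the 10 genes (1 panel per gene, linear axis starting at 0) in every library, with a bar at the group mean. For every gene except rad-51 and rad-50, the points of all 4 oogenic and offspring groups lie above those of N2 males, for him-14 only just. Against N2 oogenic germlines alone, N2 males were lower without overlap for 55.0% of all genes tested. rad-51 has similar levels in males and oogenic animals, and rad-50 has single low points in him-8 males and N2 oogenic germlines.

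Set side by side per unit of transcript length, the genes were expressed at different levels. In N2 oogenic germlines the mean RPKM (CPM per 1000 bases of transcript) was 78.7 for rad-51, 70.1 for mre-11 and 67.04 for dsb-1, and 25.1 for him-14, the lowest. In N2 males rad-51 again led with 58.4 RPKM, and cosa-1 was lowest with 7.28 RPKM. In the offspring germlines rad-50 led, with 116 RPKM in M+P- and 100.3 RPKM in M+P+. In him-8 sperm rad-51 led with 39.8 RPKM, and cosa-1 was lowest with 3.39 RPKM.

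Exons of 5 of the genes overlap another gene, and the library kit does not mark strand, so these counts carry an added uncertainty. dsb-2 overlaps exl-1, him-14 overlaps nos-2, spo-11 overlaps enpl-1 and cosa-1 overlaps Y71H2AM.12, all on the opposite strand, while dsb-1 overlaps acl-13 on the same strand. Some of these neighbours differed strongly between the sexes. acl-13 was at 37.9 to 90.5 CPM in him-8 males, against 0 to 0.244 CPM in fem-2 oogenic germlines, and exl-1 at 174 to 240.1 CPM in him-8 males, against 32.4 to 33.3 CPM in fem-2 oogenic germlines. nos-2 was at 2.15 to 5.13 CPM in him-8 males, against 102 to 129 CPM in fem-2 oogenic germlines. The part of these neighbours in the counts of the 5 genes was not tested. rad-51, msh-5, zhp-3, mre-11 and rad-50 overlap no other exon in this annotation.

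The first question was how the genes differ between germlines making sperm and germlines making oocytes. It was asked in N2 males against N2 oogenic germlines and in him-8 males against fem-2 oogenic germlines. In the him-8/fem-2 pair the mutated gene and growth temperature differ as well, so sex, genotype and temperature cannot be told apart there. In both pairs mre-11 and cosa-1 were lower in males, and in the him-8/fem-2 pair dsb-1, dsb-2 and msh-5 were lower as well while rad-51 was higher. With edgeR's quasi-likelihood test, TMM scaling and a Benjamini-Hochberg adjusted p under 0.05 over all genes tested, 2 of 10 were called lower and 0 higher in N2 males. Of the 8574 genes tested there, 22% were called lower and 38.3% higher. In him-8 males 5 of 10 were called lower and 1 higher, against 30.4% and 33.8% of 9244 genes.

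How far males lie below oogenic germlines depends on the scaling. By raw CPM males lay lower against oogenic germlines for all 10 genes than by TMM scaling, which assumes that most genes do not change. For rad-51 in the him-8/fem-2 pair, higher in males by TMM, this brought the groups closer. When only total counts were used, the median log2 change of all tested genes moved by -0.93 in the N2 pair and by -0.48 in the him-8/fem-2 pair. In the N2 pair 7 of 10 genes were then called lower and 0 higher, against 49.5% of all genes called lower and 27% higher. In the him-8/fem-2 pair 5 of 10 were called lower and 0 higher, against 46.2% and 27.7% of all genes. The CPM of the groups did not overlap, with males lower, for 9 of 10 genes in the N2 pair and 6 of 10 in the him-8/fem-2 pair, while 55.0% and 49.8% of all genes tested had the same pattern. A set of 6 genes used throughout the germline was also lower in CPM, with sums of 2106 to 3006 CPM in him-8 males, against 4191 to 4595 CPM in fem-2 oogenic germlines. The intestine markers, whose vitellogenin genes are expressed in hermaphrodites, summed to 89.0 to 244 CPM in N2 males, against 866 to 1155 CPM in N2 oogenic germlines, and to 24.5 to 497 CPM in him-8 males, against 423 to 1429 CPM in fem-2 oogenic germlines. Muscle sums were 581 to 1715 CPM in N2 males, against 157 to 209 CPM in N2 oogenic germlines. Their part in the sex differences was not tested.

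Among the genes that form breaks, spo-11 encodes the enzyme that cuts the DNA. It was at 20.5 and 20.9 CPM in N2 males, against 50.1, 59.9 and 49.5 CPM in N2 oogenic germlines. It was at 29.7, 14.6, 46.5 and 39.4 CPM in him-8 males, against 44.2, 46.7 and 47.8 CPM in fem-2 oogenic germlines. The N2 groups stood apart, whereas him-8 male 3 reached the fem-2 values, and neither contrast passed the test (log2 change -0.42 ± 0.24 (SE), adjusted p = 0.17 in N2; -0.01 ± 0.29, adjusted p = 0.97 in the him-8/fem-2 pair; edgeR).

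dsb-1 and dsb-2 encode related proteins that C. elegans needs for normal break formation. dsb-1 was at 41.4, 40.6, 37.97 and 40.4 CPM in him-8 males, against 86.1, 88.5 and 86.7 CPM in fem-2 oogenic germlines. dsb-2 was at 25.1, 17.3, 20.3 and 17.97 CPM in him-8 males, against 40.2, 42.9 and 45.1 CPM in fem-2 oogenic germlines. Neither gene's groups overlapped, and the libraries within each group lay close together. By edgeR dsb-1 fell by 0.63 ± 0.12 (SE) on the log2 scale (adjusted p = 0.0016) and dsb-2 by 0.60 ± 0.18 (adjusted p = 0.017). In N2 the changes were -0.42 ± 0.19 for dsb-1 (adjusted p = 0.089) and -0.50 ± 0.27 for dsb-2 (adjusted p = 0.14), neither of them called. The call of dsb-2 in the him-8/fem-2 pair was lost without him-8 male 2 and without fem-2 oogenic 3. The ratio of dsb-2 to dsb-1 RPKM was 0.612 to 0.872 in the 6 male libraries and 0.624 to 0.800 in the 6 oogenic libraries.

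mre-11 and rad-50 encode partners of the complex that begins the processing of break ends. mre-11 was at 53.97 and 57.8 CPM in N2 males, against 156, 175 and 181 CPM in N2 oogenic germlines. It was at 62.8, 43.8, 85.3 and 84.7 CPM in him-8 males, against 162, 169 and 188 CPM in fem-2 oogenic germlines. No male library reached an oogenic one, and mre-11 was called in both pairs (log2 change -0.68 ± 0.15 (SE), adjusted p = 0.0052 in N2; -0.84 ± 0.19, adjusted p = 0.0047 in the him-8/fem-2 pair; edgeR). With a correction for transcript length the second change was -0.27 (adjusted p = 0.22).

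rad-50 was at 104 and 106 CPM in N2 males, against 236, 243 and 74.8 CPM in N2 oogenic germlines. It was at 131, 17.8, 137 and 138 CPM in him-8 males, against 198, 253 and 220 CPM in fem-2 oogenic germlines. In each pair 1 library lay far below its group. N2 oogenic 3 had the most counts of all libraries, 18617543, and him-8 male 2 the muscle sum of 3301 CPM. The part of either in the level of rad-50 was not tested. Neither contrast was called (log2 change 0.14 ± 0.46 (SE), adjusted p = 0.82 in N2; -0.60 ± 0.49, adjusted p = 0.31 in the him-8/fem-2 pair; edgeR). Without N2 oogenic 3 the change was -0.29 (adjusted p = 0.15), with its sign turned round, and without him-8 male 2 it was -0.13 (adjusted p = 0.27).

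rad-51 encodes the recombinase that carries the single-stranded DNA into its partner. It was at 74.4 and 104 CPM in N2 males, against 141, 108 and 112 CPM in N2 oogenic germlines. It was at 106, 109, 109 and 122 CPM in him-8 males, against 104, 103 and 104 CPM in fem-2 oogenic germlines. Of the 10 genes it was the only one whose him-8 male libraries all lay above the fem-2 libraries, which 27.9% of all tested genes did too. By edgeR it rose by 0.60 ± 0.11 (SE) on the log2 scale (adjusted p = 0.0010), a rise that was 0.11 (adjusted p = 0.37) with total counts only. In N2 the change was 0.49 ± 0.20 (adjusted p = 0.068), and it turned to -0.42 (adjusted p = 0.11) with total counts only.

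The crossover genes were him-14, msh-5, cosa-1 and zhp-3. him-14 (the worm MSH4) and msh-5 encode the partners of the MutS-gamma dimer that stabilises crossover intermediates. msh-5 was at 101, 62.7, 90.2 and 91.5 CPM in him-8 males, against 154, 171 and 151 CPM in fem-2 oogenic germlines. him-14 was at 49.6, 37.3, 53.3 and 59.9 CPM in him-8 males, against 57.0, 56.6 and 62.8 CPM in fem-2 oogenic germlines. The groups of msh-5 stood apart and those of him-14 overlapped. msh-5 fell by 0.39 ± 0.14 (SE) on the log2 scale (adjusted p = 0.035, edgeR), a call that was lost when any single library was left out, and the change was 0.19 (adjusted p = 0.18) with the length correction. him-14 changed by 0.25 ± 0.15 (adjusted p = 0.17), or by -0.22 (adjusted p = 0.26) with total counts only.

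In N2, msh-5 was at 72.5 and 102 CPM in males, against 134, 159 and 161 CPM in oogenic germlines, and him-14 at 37.0 and 55.8 CPM in males, against 62.1, 62.4 and 72.7 CPM in oogenic germlines. Their TMM-scaled changes were 0.12 ± 0.16 (SE, adjusted p = 0.56) for msh-5 and 0.40 ± 0.21 (adjusted p = 0.14) for him-14 by edgeR. With the length correction him-14 was called higher in males in both pairs, by 0.65 in N2 (adjusted p = 0.024) and 0.84 in the him-8/fem-2 pair (adjusted p = 0.00065). With total counts only both were below 0, at -0.80 (adjusted p = 0.0059) for msh-5 and -0.51 (adjusted p = 0.089) for him-14.

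cosa-1 encodes a cyclin-like protein, and zhp-3 a RING finger protein, that gather at the future crossover site. cosa-1 was at 6.30 and 10.7 CPM in N2 males, against 29.7, 46.4 and 36.0 CPM in N2 oogenic germlines. It was at 16.2, 15.1, 11.3 and 16.2 CPM in him-8 males, against 33.6, 32.4 and 37.0 CPM in fem-2 oogenic germlines. No male library reached an oogenic one. By edgeR cosa-1 fell by 1.22 ± 0.35 (SE) on the log2 scale in N2 (adjusted p = 0.015) and by 0.74 ± 0.20 in the him-8/fem-2 pair (adjusted p = 0.012). The call in the him-8/fem-2 pair was lost with a replicate block (adjusted p = 0.065, edgeR). Both calls were lost in 1 fit of all 25 libraries. The call in N2 was lost without N2 male 1 and without N2 oogenic 2.

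zhp-3 was at 26.8 and 30.3 CPM in N2 males, against 55.6, 62.4 and 47.05 CPM in N2 oogenic germlines, and at 42.3, 30.8, 32.4 and 32.5 CPM in him-8 males, against 39.4, 43.2 and 55.2 CPM in fem-2 oogenic germlines. The N2 groups stood apart in CPM, and the others met at him-8 male 1. Its TMM-scaled changes were -0.01 ± 0.24 (SE, adjusted p = 0.98) in N2 and 0.07 ± 0.19 (adjusted p = 0.77) in the him-8/fem-2 pair by edgeR. With total counts only they were -0.93 (adjusted p = 0.0089) and -0.41 (adjusted p = 0.067).

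**Figure D2:**
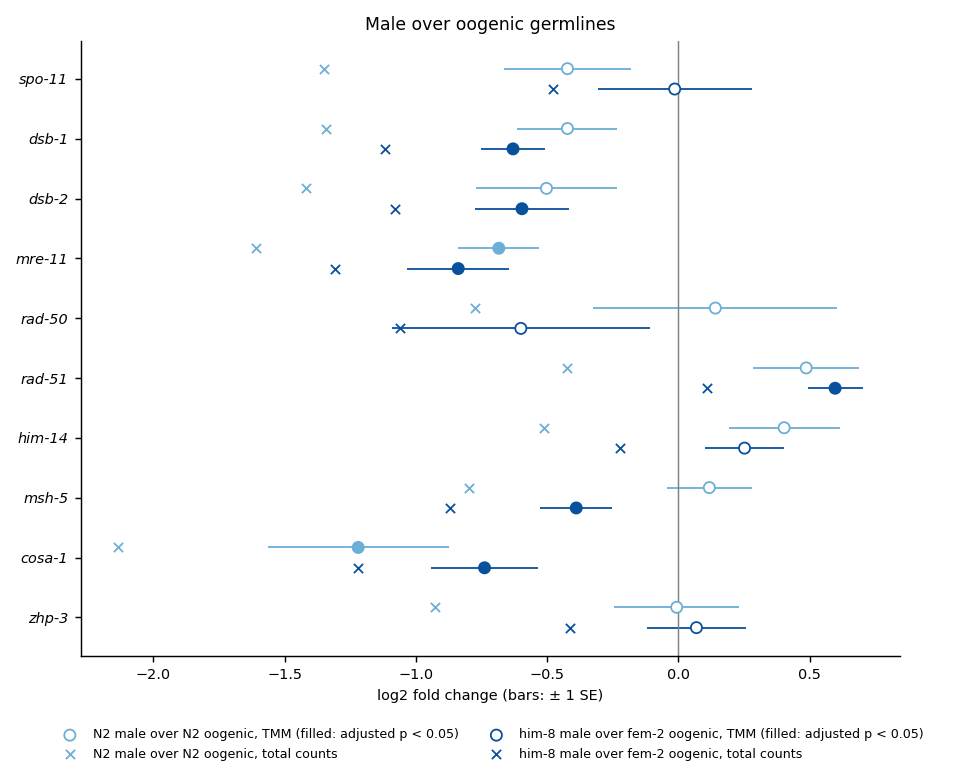
Log2 fold change of the 10 genes, male over oogenic germlines, for the N2 pair and the him-8/fem-2 pair; circles are TMM-scaled edgeR estimates with bars of 1 SE (filled where the adjusted p was under 0.05) and crosses the estimates from total counts only. The crosses lie left of the circles for every gene, and cosa-1 and mre-11 are filled in both pairs.

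Ratios of partner genes within a library do not depend on how libraries are scaled. For 4 pairs of partners, chosen after the values above were seen, the 6 N2 and him-8 male libraries were set beside the 6 oogenic libraries of both strain pairs. Since the gene values prompted the choice, the ratios are given as a description, with no test. The ratio of zhp-3 to cosa-1 RPKM had a geometric mean of 2.43 in N2 and him-8 males and 1.27 in oogenic germlines, and the lowest of these male values, 1.82, lay above the highest oogenic value of 1.70. The ratio of him-14 to msh-5 RPKM had a geometric mean of 0.905 in N2 and him-8 males and 0.645 in oogenic germlines, again without overlap, since these males ran from 0.791 to 1.05 and oogenic germlines from 0.533 to 0.744. The mes-3 male germlines did not show either difference. Their zhp-3 to cosa-1 ratio ran from 0.725 to 1.18 and their him-14 to msh-5 ratio from 0.641 to 0.766, against 1.06 to 1.70 and 0.533 to 0.744 in the oogenic germlines.

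Within the strain pairs the zhp-3 to cosa-1 ratio was higher in males by 1.23 on the log2 scale in N2 and by 0.82 in the him-8/fem-2 pair, and the him-14 to msh-5 ratio by 0.28 and 0.65. The ratio of dsb-2 to dsb-1 differed by -0.02 on the log2 scale over both pairs and that of rad-50 to mre-11 by 0.35. msh-5 transcripts are longer than those of him-14, at 4219 and 2620 bases, while zhp-3 and cosa-1 have 1284 and 1165 bases.

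**Figure D3:**
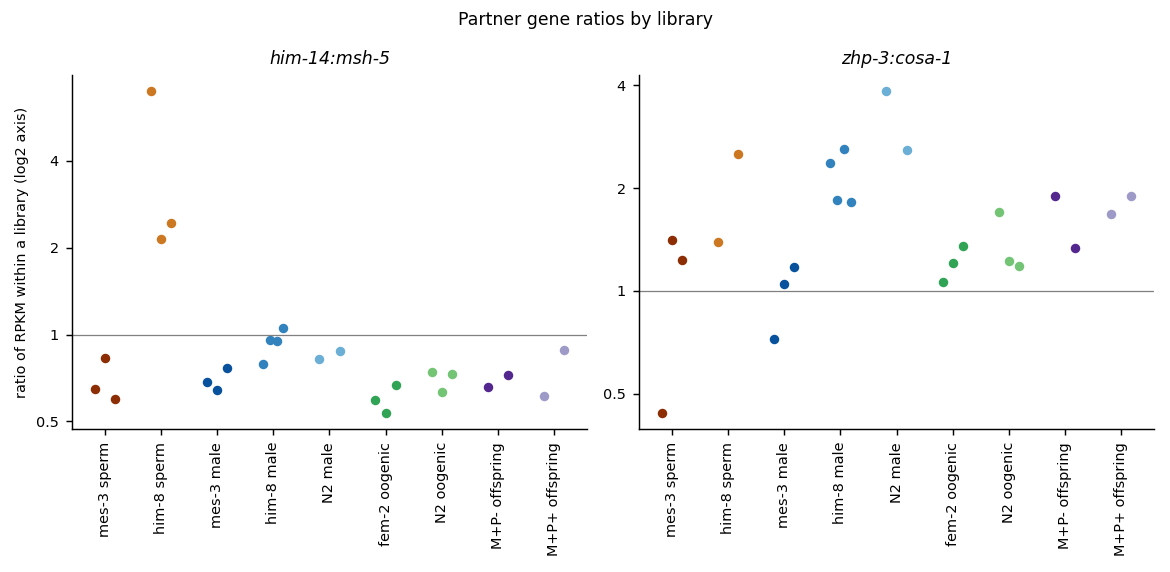
RPKM ratio of him-14 to msh-5 and of zhp-3 to cosa-1 in each library, on a log2 axis, with groups along the horizontal axis and a line at a ratio of 1. Male germlines of him-8 and N2 lie above the fem-2 and N2 oogenic germlines in both panels while those of mes-3 do not, the 3 him-8 sperm libraries have him-14 to msh-5 ratios of 2.15 to 7.01, and him-8 sperm 1, with 0 counts of cosa-1, has no value in the panel of zhp-3 to cosa-1.

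The size of the sex difference was compared between the 2 strain pairs with an interaction term. None of the 10 genes was called, against 0.0101% of 9916 genes, and 0 of the 10 had an unadjusted p under 0.05. The interaction nearest to the threshold was that of cosa-1, at 0.73 ± 0.38 (SE) on the log2 scale with an unadjusted p of 0.076 and an adjusted p of 1 by edgeR.

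Name tags in the library names divide these libraries into several sets. The tag found in both sexes was on the third fem-2 oogenic library, N2 male 2 and N2 oogenic 3. In it cosa-1 was at 10.7 CPM in the male, against 36.0 and 37.0 CPM in the oogenic libraries, mre-11 at 57.8 CPM against 181 and 188 CPM, and rad-51 at 104 CPM against 112 and 104 CPM. No test was fitted within the tag, which holds 1 male.

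The other genes of the pathway were called in both directions in TMM-scaled values, with a median below that of all genes in both pairs. Of 43 tested in N2, 8 were called higher and 9 lower in males, with a median log2 change of -0.05 against 0.23 over all genes. Of 43 tested in the him-8/fem-2 pair, 6 were called higher and 14 lower, with a median of -0.30 against 0.03. Over all genes 38.3% were called higher and 22% lower in N2, and 33.8% and 30.4% in the him-8/fem-2 pair. By total counts the split was 0 higher and 30 lower in N2 and 1 higher and 30 lower in the him-8/fem-2 pair. That scaling called 27% of all genes higher and 49.5% lower in N2, and 27.7% and 46.2% in the him-8/fem-2 pair. In the break formation list, 3 of 7 were called lower and 0 higher in each pair, where 22% of all genes were called lower in N2 and 30.4% in the him-8/fem-2 pair. Scaled by total counts, 6 of 7 were lower in N2 and 7 of 7 in the him-8/fem-2 pair, against 49.5% and 46.2% of all genes. They included dsb-3, another break protein, at 11.4 ± 2.8 CPM in him-8 males (SD, n = 4) and 33.3 ± 3.9 CPM in fem-2 oogenic germlines (SD, n = 3), a change of -1.05 ± 0.22 (SE, adjusted p = 0.0029, edgeR). They also included xnd-1, a chromatin factor that shapes where breaks form, at 86.5 ± 16.9 CPM in him-8 males (SD, n = 4) and 311 ± 11.2 CPM in fem-2 oogenic germlines (SD, n = 3), a change of -1.36 ± 0.14 (SE, adjusted p = 3.0e-05, edgeR).

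In the resection list, 2 of 12 genes were called higher and 2 lower in him-8 males, and in N2 males 3 were higher and 1 lower. The shares over all genes, for this and the next lists, were 33.8% higher and 30.4% lower in him-8 males. In N2 males they were 38.3% and 22%. rpa-2, a subunit of the protein that coats single-stranded DNA, was at 236 ± 29.0 CPM in him-8 males (SD, n = 4) and 188 ± 4.4 CPM in fem-2 oogenic germlines (SD, n = 3), and rose by 0.81 ± 0.11 (SE, adjusted p = 0.00021, edgeR). In the crossover list, 4 of 12 were called higher and 3 lower in each pair. Scaled by total counts, no gene of this list was called higher, and 6 were lower in N2 and 7 in the him-8/fem-2 pair. In the resection list that scaling gave 0 higher and 8 lower in N2, and 1 higher, rpa-2, and 8 lower in the him-8/fem-2 pair. Over all genes it called 27% higher and 49.5% lower in N2, and 27.7% and 46.2% in the him-8/fem-2 pair. Of the 8 checkpoint genes 5 were called lower and 0 higher in him-8 males, and 1 in each direction in N2. clk-2 had the largest change in that list in both pairs, -1.66 ± 0.21 (SE, adjusted p = 0.00013, edgeR) in the him-8/fem-2 pair. cku-80, which binds DNA ends in end joining, was the only called gene of 4 in its list in both pairs, at -0.87 ± 0.16 (SE, adjusted p = 0.0012, edgeR) in the him-8/fem-2 pair.

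The second question was what remains of these RNAs in sperm, cells that have finished meiosis. Every change that passed the test was a decrease. In him-8 sperm 4 of 10 were called lower than in him-8 male germlines, namely msh-5, dsb-1, dsb-2 and zhp-3, against 14.4% of 8626 genes called lower and 16.2% higher. In mes-3 sperm 5 of 10 were called lower than in mes-3 male germlines, namely rad-50, msh-5, him-14, mre-11 and dsb-2, against 10.4% of 10018 genes called lower and 19% higher. msh-5 and dsb-2 were called in both strains. With total counts only, 5 of 10 were called lower and 0 higher in him-8, rad-51 joining the 4, against 22.4% and 11.5% of all genes. In mes-3 the same 5 of 10 were called lower and 0 higher, against 18.7% and 16.4% of all genes. The CPM of sperm lay below that of male germlines without overlap for 6 of 10 genes in him-8, against 32.7% of all genes, and for 8 of 10 in mes-3, against 32.8%. The him-8 males serve as the comparison group here and in the sex and mes-3 comparisons, so these results are not independent.

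msh-5 was at 10.2, 22.8 and 30.2 CPM in him-8 sperm, against 101, 62.7, 90.2 and 91.5 CPM in him-8 male germlines. It was at 89.1, 39.7 and 69.5 CPM in mes-3 sperm, against 144, 153 and 169 CPM in mes-3 male germlines. All sperm libraries lay below the male germlines of their strain. The fall was 1.72 ± 0.33 (SE) on the log2 scale in him-8 (adjusted p = 0.0079) and 1.02 ± 0.25 in mes-3 (adjusted p = 0.011) by edgeR, and it was called whichever library was left out.

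Its partner him-14 was at 44.3, 30.5 and 45.7 CPM in him-8 sperm, overlapping the 37.3 to 59.9 CPM of him-8 male germlines, with a log2 change of 0.00 ± 0.24 (SE, adjusted p = 0.99, edgeR). In mes-3 sperm it was at 35.8, 20.5 and 25.7 CPM, against 61.2, 60.9 and 80.4 CPM in mes-3 male germlines, and fell by 1.09 ± 0.28 (SE, adjusted p = 0.013, edgeR). The ratio of him-14 to msh-5 RPKM was thus 2.15, 2.44 and 7.01 in him-8 sperm, where msh-5 had as few as 20 counts, against 0.791 to 1.05 in him-8 male germlines. It was 0.596 to 0.831 in mes-3 sperm, against 0.641 to 0.766 in mes-3 male germlines.

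dsb-1 was at 10.7, 11.7 and 15.2 CPM in him-8 sperm, against 41.4, 40.6, 37.97 and 40.4 CPM in him-8 male germlines. In mes-3 sperm it was at 15.8, 46.8 and 23.7 CPM, against 40.9, 51.1 and 53.2 CPM in mes-3 male germlines. The him-8 groups stood apart, while mes-3 sperm 2 fell within the mes-3 germline range. It fell by 1.37 ± 0.28 (SE) on the log2 scale in him-8 (adjusted p = 0.0095, edgeR), and changed by -0.56 ± 0.37 in mes-3 (adjusted p = 0.29).

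dsb-2 was at 5.09, 1.52 and 6.16 CPM in him-8 sperm, with as few as 3 counts, against 25.1, 17.3, 20.3 and 17.97 CPM in him-8 male germlines. It was at 6.33, 16.01 and 6.43 CPM in mes-3 sperm, against 27.2, 43.2 and 20.8 CPM in mes-3 male germlines. Sperm lay below the germlines in both strains, by 1.92 ± 0.54 (SE) on the log2 scale in him-8 (adjusted p = 0.028) and 1.48 ± 0.49 in mes-3 (adjusted p = 0.043) by edgeR. The call in him-8 was lost without him-8 male 1, 3 or 4, and that in mes-3 with any library left out except mes-3 sperm 2.

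zhp-3 was at 3.56, 11.7 and 11.7 CPM in him-8 sperm, against 42.3, 30.8, 32.4 and 32.5 CPM in him-8 male germlines, and fell by 1.63 ± 0.43 (SE) on the log2 scale (adjusted p = 0.024, edgeR). In mes-3 sperm it was at 7.38, 8.97 and 15.3 CPM, against 17.9, 24.0 and 22.6 CPM in mes-3 male germlines, and its change of -0.80 ± 0.45 (SE, adjusted p = 0.22) did not pass. The call in him-8 was lost without him-8 male 1, 3 or 4. cosa-1 had 0 counts in him-8 sperm 1, where 3 counts would be 1.53 CPM, and 7.62 and 4.22 CPM in the other him-8 sperm, against 16.2, 15.1, 11.3 and 16.2 CPM in him-8 male germlines. Its groups did not overlap, but its change of -1.58 ± 0.89 (SE, adjusted p = 0.19, edgeR) was not called.

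rad-50 was at 142, 167 and 153 CPM in mes-3 sperm, against 322, 314 and 328 CPM in mes-3 male germlines. The libraries of each group were close together, and it fell by 0.86 ± 0.13 (SE) on the log2 scale (adjusted p = 0.00069, edgeR). In him-8 sperm it was at 75.8, 38.1 and 62.2 CPM, below the 131 to 138 CPM of 3 him-8 male libraries and above the 17.8 CPM of him-8 male 2. Its change there was -0.50 ± 0.55 (SE, adjusted p = 0.50), or -0.81 ± 0.25 without him-8 male 2 (adjusted p = 0.024).

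mre-11 was at 61.2, 48.04 and 55.0 CPM in mes-3 sperm, against 116, 100.1 and 116 CPM in mes-3 male germlines, and fell by 0.81 ± 0.19 (SE) on the log2 scale (adjusted p = 0.0093, edgeR). In him-8 sperm it was at 35.6, 57.9 and 66.8 CPM, overlapping the 43.8 to 85.3 CPM of him-8 male germlines. The calls of mre-11 and him-14 in mes-3 were lost without mes-3 male 3, where the count of called genes was 2 of 10, against 20.4% of all genes. spo-11 and rad-51 were called in neither strain. spo-11 was at 18.4, 15.4 and 28.5 CPM in mes-3 sperm, against a range of 34.8 to 41.9 CPM in male germlines of mes-3, and at 33.1, 29.4 and 13.9 CPM in him-8 sperm, within the 14.6 to 46.5 CPM of him-8 male germlines or just below it. rad-51 was at 44.8, 62.0 and 75.5 CPM in him-8 sperm, against 106 to 122 CPM in him-8 male germlines, and its change of -0.57 ± 0.19 (SE) had an adjusted p of 0.053 (edgeR).

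**Figure D4:**
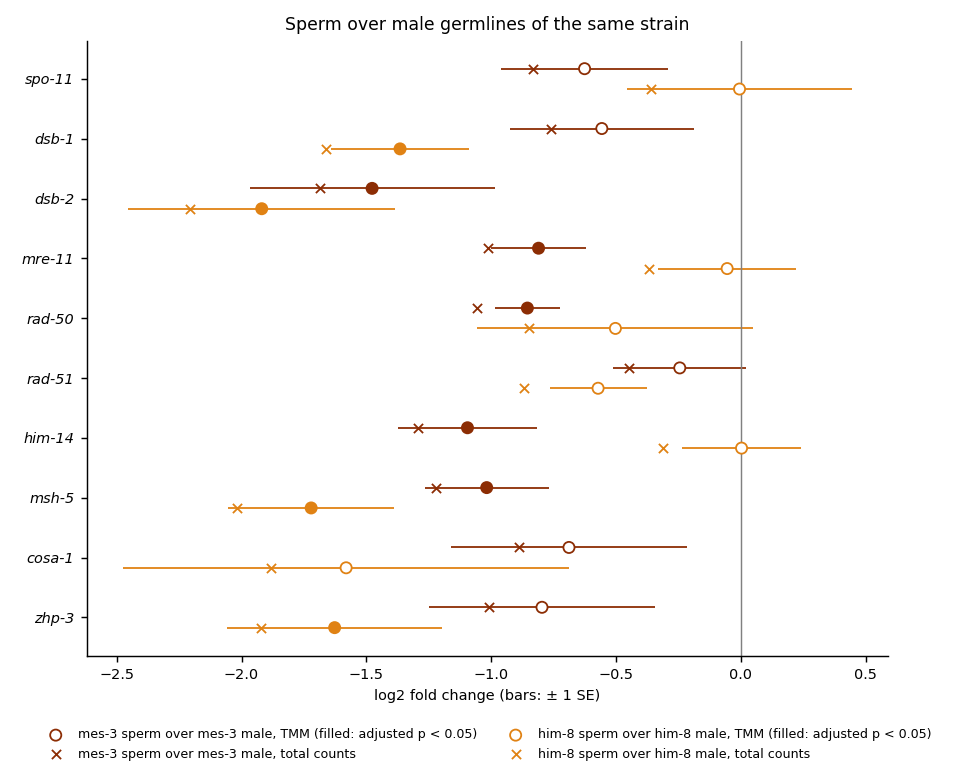
Log2 fold change of the 10 genes, sperm over male germlines of the same strain, for mes-3 and him-8; circles are TMM-scaled edgeR estimates with bars of 1 SE (filled where the adjusted p was under 0.05) and crosses the estimates from total counts only. All filled circles lie below 0, and him-14 lies at 0.00 in him-8 and at -1.09 in mes-3.

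Markers of other tissues moved with this comparison. Beside the muscle sums given above, 8 intestine markers summed to 793 to 878 CPM in mes-3 sperm, against 23.4 to 53.5 CPM in male germlines of mes-3, and to 341 to 752 CPM in him-8 sperm, against 24.5 to 497 CPM in him-8 male germlines. The 6 hypodermis markers summed to 166 to 236 CPM in mes-3 sperm, against 7.01 to 11.1 CPM in male germlines of mes-3, and to 101 to 198 CPM in him-8 sperm, against 6.63 to 317 CPM in him-8 male germlines. In him-8 the germline maxima were those of him-8 male 2. Every muscle and intestine marker had counts in at least 1 library of each sperm group, and of the 6 hypodermis markers dpy-5 was at 0 in all him-8 sperm. Their part in the lower levels was not tested. The 6 genes used throughout the germline summed to 1143 to 1495 CPM in him-8 sperm, against 2106 to 3006 CPM in him-8 male germlines, and to 1712 to 1825 CPM in mes-3 sperm, against 2810 to 3128 CPM in mes-3 male germlines. All mes-3 males and all sperm carried the same name tag, which no him-8 male germline shared, so in him-8 the tag and the cell type cannot be told apart, whereas the mes-3 comparison lies within the tag.

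The difference of the sperm effect between mes-3 and him-8 was tested as an interaction, and 0 of 10 genes passed, against 2.75% of 10129 genes. By unadjusted p under 0.05 there was 1, him-14, at -1.05 ± 0.36 (SE, unadjusted p = 0.010, adjusted p = 0.13, edgeR). The strains were therefore not shown to differ for any of the 10 genes.

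In mes-3 sperm, 11 of the 43 other pathway genes tested were called lower than in mes-3 male germlines and 0 higher, with a median log2 change of -0.47 against -0.06 over all genes. In him-8 sperm 4 of 43 were called higher and 7 lower, with a median of -0.47 against -0.11. Among all genes tested with TMM scaling, the mes-3 comparison had 10.4% lower and 19% higher. The him-8 comparison had 14.4% lower and 16.2% higher. In him-8 sperm 5 of the 7 break formation genes were lower and 0 higher. dsb-3 was at 1.20 ± 1.3 CPM in him-8 sperm (SD, n = 3) and 11.4 ± 2.8 CPM in him-8 male germlines (SD, n = 4), with a change of -2.84 ± 0.86 (SE, adjusted p = 0.037, edgeR). dna-2, a nuclease-helicase of end resection, was called higher, at 313 ± 35.5 CPM in him-8 sperm (SD, n = 3) and 228 ± 33.2 CPM in him-8 male germlines (SD, n = 4), a change of 0.77 ± 0.14 (SE, adjusted p = 0.0059, edgeR), or 0.46 (adjusted p = 0.065) with total counts only. With that scaling 0 of 43 were higher and 10 lower in him-8 sperm, and 0 higher and 19 lower in mes-3 sperm. Over all genes it called 11.5% higher and 22.4% lower in him-8 sperm, and 16.4% and 18.7% in mes-3 sperm. In mes-3 sperm, rmh-1, which regulates crossovers, was at 31.6 ± 8.7 CPM (SD, n = 3), against 101 ± 1.0 CPM in mes-3 male germlines (SD, n = 3), with a change of -1.49 ± 0.24 (SE, adjusted p = 0.00099, edgeR).

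The third question was whether germlines and sperm of mes-3 males differ from those of him-8 males. The him-8 males carried a mutation that is not listed for the mes-3 strain. The effects of the 2 mutations therefore cannot be told apart. In male germlines msh-5 was higher in mes-3 and zhp-3 lower, and in sperm rad-50 was higher. In germlines 1 of 10 was called higher and 1 lower, against 12.2% and 15.8% of 8930 genes. In sperm 1 of 10 was called higher and 0 lower, against 3.22% and 7.05% of 8424 genes. With total counts only, 3 of 10 were called higher in germlines, rad-50 and mre-11 beside msh-5, and 1 lower, against 19.1% and 11.1% of all genes. In sperm 2 were then called higher, msh-5 beside rad-50, and 0 lower, against 5.5% and 3.21% of all genes. The CPM of the groups did not overlap, with mes-3 higher, for 5 of 10 genes in germlines and 4 of 10 in sperm, against 30.9% and 22.9% of all genes. Sums of marker genes moved with the genotype. The 8 spermatogenesis genes summed to 2675 to 2987 CPM in male germlines of mes-3, against 3624 to 5224 CPM in him-8 male germlines, and to 3273 to 3789 CPM in mes-3 sperm, against 5215 to 6082 CPM in him-8 sperm. The 6 genes used throughout the germline summed to 2810 to 3128 CPM in male germlines of mes-3, against 2106 to 3006 CPM in him-8 male germlines, and to 1712 to 1825 CPM in mes-3 sperm, against 1143 to 1495 CPM in him-8 sperm. Their part in these differences was not tested. Only germlines differed in name tag, with no tag shared, so there the tag and the genotype cannot be told apart. The sperm of both strains carried 1 tag. In N2 male germlines, which have neither mutation, zhp-3 was at 26.8 and 30.3 CPM, msh-5 at 72.5 and 102 CPM and rad-50 at 104 and 106 CPM.

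zhp-3 was at 17.9, 24.0 and 22.6 CPM in mes-3 male germlines, against 42.3, 30.8, 32.4 and 32.5 CPM in him-8 male germlines. No mes-3 library reached a him-8 library. It fell by 0.89 ± 0.19 (SE) on the log2 scale (adjusted p = 0.012, edgeR). It fell by 1.05 against the him-8 males of 1 tag (replicates 1 and 2, adjusted p = 0.027) and by 0.76 against those of the other (replicates 3 and 4, adjusted p = 0.025). In sperm its level overlapped, at 7.38 to 15.3 CPM in mes-3 and 3.56 to 11.7 CPM in him-8.

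msh-5 was at 144, 153 and 169 CPM in mes-3 male germlines, against 101, 62.7, 90.2 and 91.5 CPM in him-8 male germlines. It rose by 0.65 ± 0.14 (SE) on the log2 scale (adjusted p = 0.013, edgeR). With the correction for transcript length the change was 0.13 (adjusted p = 0.44), and the call was also lost without mes-3 male 3 and against him-8 males 1 and 2 alone (adjusted p = 0.070). In sperm msh-5 was at 89.1, 39.7 and 69.5 CPM in mes-3, against 10.2, 22.8 and 30.2 CPM in him-8, with a change of 1.38 ± 0.44 (SE, adjusted p = 0.067, edgeR).

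rad-50 was at 322, 314 and 328 CPM in mes-3 male germlines, against 131, 17.8, 137 and 138 CPM in him-8 male germlines. All mes-3 libraries were above all him-8 libraries, but the change of 1.41 ± 0.47 (SE) had an adjusted p of 0.051 (edgeR). Without him-8 male 2 it was 1.08 ± 0.10 with an adjusted p of 5.6e-05, and the count of called genes was then 3 of 10, against 32.7% of all genes. In sperm rad-50 was at 142, 167 and 153 CPM in mes-3, against 75.8, 38.1 and 62.2 CPM in him-8, and rose by 1.12 ± 0.27 (SE, adjusted p = 0.018, edgeR). This call was lost without mes-3 sperm 2, without mes-3 sperm 3, without him-8 sperm 2 and in 1 fit of all 25 libraries (adjusted p = 0.11).

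The ratio of rad-50 to mre-11 RPKM was 1.60 to 1.82 in mes-3 male germlines, against 0.237 to 1.21 in him-8 male germlines, and 1.35 to 2.02 in mes-3 sperm, against 0.382 to 1.24 in him-8 sperm. The ratio of zhp-3 to cosa-1 RPKM was 0.725 to 1.18 in mes-3 male germlines, against 1.81 to 2.60 in him-8 male germlines. Neither range overlapped between the strains in germlines. In sperm the zhp-3 to cosa-1 ratio ran from 0.438 to 1.41 in mes-3, against 1.39 and 2.51 in the 2 him-8 libraries that had a count of cosa-1.

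The other 7 genes had log2 changes between 0.00 and 0.48 in male germlines, none of them called. mre-11 came nearest, at 116, 100.1 and 116 CPM in mes-3 male germlines, against 62.8, 43.8, 85.3 and 84.7 CPM in him-8 male germlines, a change of 0.48 ± 0.20 (SE, adjusted p = 0.094, edgeR). In sperm the other 8, beside rad-50 and msh-5, had changes between -0.82 and 1.14 with adjusted p of at least 0.23. The widest was that of cosa-1, 1.14 ± 1.12 (SE).

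**Figure D5:**
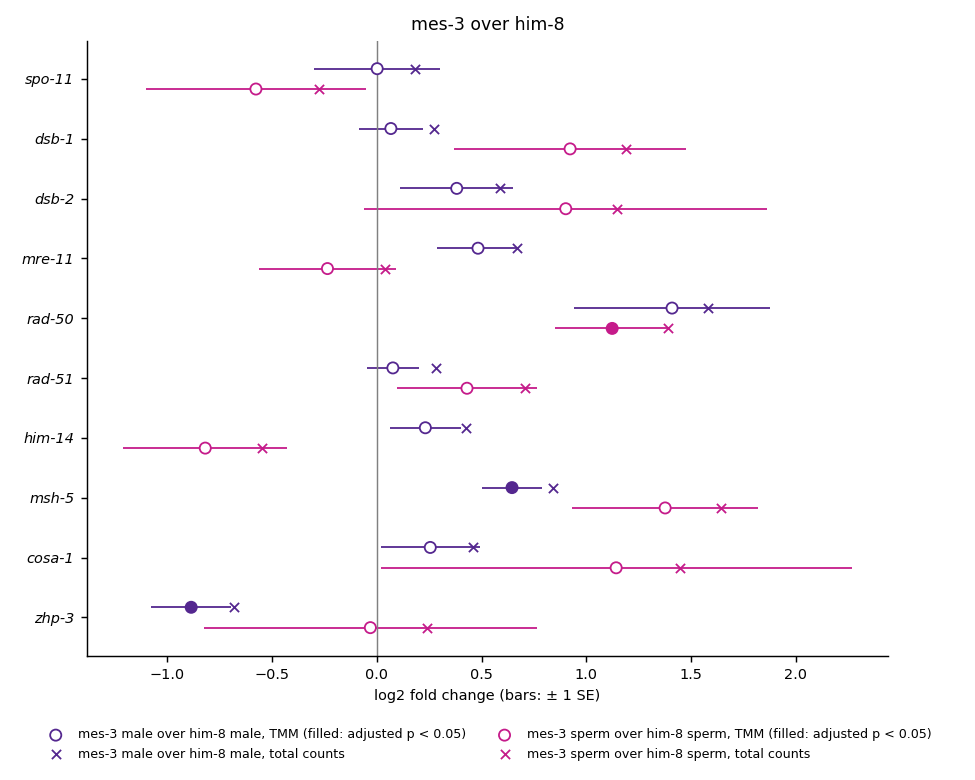
Log2 fold change of the 10 genes, mes-3 over him-8, in male germlines and in sperm; circles are TMM-scaled edgeR estimates with bars of 1 SE (filled where the adjusted p was under 0.05) and crosses the estimates from total counts only. The filled circles are zhp-3 at -0.89 and msh-5 at 0.65 in male germlines and rad-50 at 1.12 in sperm, and sperm has wider bars for 9 of the 10 genes.

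Among the other pathway genes 5 of 43 were called higher and 2 lower in mes-3 male germlines, and 0 of 41 higher and 1 lower in mes-3 sperm, with medians of 0.19 and 0.03 against 0.01 and 0.06 over all genes. Over all genes 12.2% were called higher and 15.8% lower in germlines, and 3.22% and 7.05% in sperm. atm-1, a checkpoint kinase gene, had the largest change in germlines, 1.11 ± 0.33 (SE, adjusted p = 0.035, edgeR). zhp-1, which encodes a RING finger protein related to ZHP-3, changed by -1.002 ± 0.28 (SE, adjusted p = 0.028, edgeR), a call lost with total counts only (adjusted p = 0.051). With that scaling 11 of 43 were higher and 1 lower in germlines, and none was called in sperm. Over all genes it called 19.1% higher and 11.1% lower in germlines, and 5.5% and 3.21% in sperm. In sperm the only one called was dna-2, at -0.83 ± 0.19 (SE, adjusted p = 0.014, edgeR), or -0.55 (adjusted p = 0.088) with total counts only.

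The last question was whether oogenic germlines of offspring differ by whether the sperm chromosomes they inherited had lacked or borne H3K27me3. None of the 10 genes was called, and 0.0% of 11962 genes were. By an unadjusted p under 0.05 there were 0 of the 10 and 1244 of all genes, and DESeq2 also called 0 of the 10, against 1.35% of all genes. The log2 changes lay between -0.34 for dsb-2 and 0.21 for mre-11, with standard errors of 0.15 to 0.33. An approximate 95% interval, built from the SE with the multiplier of a normal distribution, ran from -0.37 to 0.41 for rad-51. For cosa-1, the widest, it ran from -0.66 to 0.62. With 2 libraries per group such an interval can be too narrow.

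dsb-2 was at 35.3 and 43.7 CPM in M+P-, against 44.0 and 53.5 CPM in M+P+. zhp-3 was at 58.8 and 62.3 CPM in M+P-, against 64.6 and 73.6 CPM in M+P+, and mre-11 at 206 and 218 CPM in M+P-, against 202 and 154 CPM in M+P+. In these 3 genes the pairs of libraries did not overlap, 1 with M+P- higher and 2 with M+P- lower, against 23% and 19.2% of all genes. The other 7 overlapped. rad-50 was at 512 and 464 CPM in M+P-, against 481 and 360 CPM in M+P+, above every other library of the series. These 4 libraries were the only ones raised at 15 °C throughout and carried a name tag of their own, so temperature, genotype and tag cannot be told apart in that difference.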

How the data were processed

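The authors aligned 50-base single-end reads of ribosomal RNA-depleted total RNA with TopHat2 to the WS220 transcriptome and counted reads per gene with HTSeq (versions not given in the sources used here). Each deposited count file gives 1 library's unnormalized counts. The deposited RPKM table holds the authors' group means, computed from counts and the longest exonic transcript, and was used to recover transcript lengths. From the counts and those lengths, CPM and RPKM per library were computed here. The deposited tables of the authors' own fold changes and adjusted p-values were not used.

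Summary lines were left out; reads outside genes made up 3.55% to 18.8% of counted reads. Names, chromosomes and overlaps come from RefSeq and Ensembl tables for WBcel235, so no coordinates are given.

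Each comparison was fitted alone in edgeR 4.0.16 (R 4.3.3; filterByExpr, TMM factors, quasi-likelihood F test), with Benjamini-Hochberg adjustment over all genes tested and a threshold of 0.05. SE is the log2 change divided by the square root of F. The fit was tested on simulated data. Alternatives were RLE factors, total counts, no filter, DESeq2 1.42.0, a lowess correction for length (span 0.3), a replicate block, 1 fit of all 25 libraries, him-8 controls of 1 name tag, and each library left out.

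The 10 genes and the pathway and marker lists were chosen with earlier results of these data known. In each pathway list the 2 called genes with the largest changes could be named. Partner ratios were added after the values were seen. A count of 0 was read as allowing up to 3 counts, which covers counting error only. None of 24 replicate pairs held the same counts (chi-square per degree of freedom 2.88 to 50.1).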

Additional observations from a re-analysis of the deposited data

Results flagged for a closer look

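In him-8 male germlines 2 of the 10 genes had a library far from the others (Dixon's test at the 95% level). This was the only group large enough for the test, with 4 libraries. All 10 tests used those same libraries, and the share of all genes with such a library was not computed. rad-50 was at 17.8 CPM in him-8 male 2, against 131 to 138 CPM in the others, and the gap to the nearest was 0.942 of the range. zhp-3 was at 42.3 CPM in him-8 male 1, against 30.8 to 32.5 CPM in the others, and the gap was 0.852 of the range. Without him-8 male 1, zhp-3 still fell in mes-3 male germlines, by 0.79 on the log2 scale (adjusted p = 0.030, edgeR).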

How the results depend on the processing

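The number of the 10 genes called depended on the scaling. With total counts it was 7 for N2 males against oogenic germlines (76.4% of all genes), 4 for mes-3 against him-8 male germlines (30.2%) and 2 for mes-3 against him-8 sperm (8.7%), where the TMM fits gave 2, 2 and 1, and the median of all tested genes moved by -0.31 in him-8 sperm, -0.20 in mes-3 sperm, 0.20 in mes-3 male germlines and 0.27 in mes-3 against him-8 sperm. With the length correction it was 4 for the N2 pair (66% of all genes) and 1 for mes-3 against him-8 male germlines (20.2%). With all 25 libraries in 1 fit it was 1 for the N2 pair, mre-11 (37.4% of all genes), and 2 for the him-8/fem-2 pair, rad-51 and mre-11 (44.9%). For mes-3 against him-8 sperm it was 2 (18%), where msh-5 was called higher and him-14 lower (-0.94, adjusted p = 0.0092, edgeR). There rad-50 lost its call (adjusted p = 0.11, edgeR). With no count filter and with DESeq2 the count for mes-3 against him-8 sperm was also 2, msh-5 and rad-50 (6.75% and 10.7% of all genes). The cause was not tested. Over all genes, the fit of all libraries called 5623 in him-8 sperm, against 2643 in the fit alone, and 2494 in mes-3 against him-8 sperm, against 865. In the offspring 133 genes were called by DESeq2, 15 with no count filter and 10 in the fit of all libraries, against 0. In the interactions, no count filter gave 18 and 804 genes and DESeq2 8 and 850, against 1 for the sex effect and 279 for the sperm effect.

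With each library left out in turn the number called ran from 4 to 5 in the him-8/fem-2 pair, against 57% to 71% of all genes. It ran from 2 to 5 for him-8 sperm against male germlines (16.2% to 42%) and from 2 to 6 for mes-3 sperm against male germlines (20.4% to 26.4%). For mes-3 against him-8 it ran from 1 to 3 in male germlines (10.3% to 32.7%) and from 0 to 1 in sperm (3.15% to 9.37%). In the N2 pair it was 1 to 2 with an oogenic library left out (53.8% to 57.2%). It was 0 in the offspring and in both interactions whichever library was left out. The lowest counts over all genes were 1335 for him-8 sperm without him-8 male 1, 1958 for mes-3 sperm without mes-3 male 3, 951 for mes-3 male germlines without mes-3 male 3 and 280 for mes-3 against him-8 sperm without mes-3 sperm 2, and the offspring had 23 to 583. Where this left 1 library in a group, that library was assumed to vary like the others.

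Replicate numbers gave no clear pairing of the libraries: same-numbered ones correlated between -0.37 and 0.12 in their deviations. The highest value, 0.12, was that of the offspring, where the other match gave -0.12. With the replicate block the number called was 3 for the him-8/fem-2 pair (rad-51, dsb-1 and mre-11, 48.3% of all genes), against 6 without it (64.2%). For him-8 sperm it was 1 (13.5%), against 4 without it (30.6%). It was 2 in the N2 pair (59.3%) and 5 for mes-3 sperm against male germlines (24.1%). For mes-3 against him-8 sperm it was 1 (6.17%), and in the offspring 0 (4.54%). In mes-3 against him-8 male germlines it was 2 (15.7%), but with the block msh-5 lost its call (adjusted p = 0.061, edgeR) and rad-50 gained one (adjusted p = 0.027), beside zhp-3. Over all genes the block gave 1453 in him-8 sperm, 576 in mes-3 against him-8 sperm and 543 in the offspring.

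Direction turned round for rad-51 (-0.42) and him-14 (-0.51) in N2 and for him-14 in the him-8/fem-2 pair (-0.22) with total counts, and for msh-5 in the him-8/fem-2 pair (0.19) and him-14 in mes-3 male germlines (-0.10) with the length correction. Within the him-8/fem-2 pair the log2 ratio of rad-50 to mre-11 differed by -0.0785 and that of dsb-2 to dsb-1 by 0.0218, and with each library left out the dsb-2 to dsb-1 difference ran from -0.0838 to 0.0181. Of 600 single-gene results under alternatives, 513 kept direction and call, 51 lost the call, 31 gained it and 5 reversed. Genes within 1 SE of 0 were not counted, since no direction was given for them. The offspring comparison and the interactions were not counted either. The 600 include results not called in the main fits, which could not lose a call, so the 51 are not a share of the calls.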

Other observations

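rad-50 was low in N2 oogenic 3 as well as in him-8 male 2. Thresholds set after its values were seen asked for a level in N2 oogenic 3 at least 1.5 log2 units below the mean of N2 oogenic 1 and 2, and in him-8 male 2 at least 2.5 log2 units below the mean of the other him-8 males. Of 3806 genes above 20 CPM in those other libraries, 2 passed, rad-50 and xnp-1 (B0041.7), the worm relative of the chromatin remodeller ATRX. xnp-1 was at 59.8 CPM in N2 oogenic 3, against 236 and 239 CPM in N2 oogenic 1 and 2, and at 34.6 CPM in him-8 male 2, against 190 to 232 CPM in the other him-8 males. In N2 oogenic 3 alone, 30 genes were further below their group than rad-50, and in him-8 male 2 alone 1 gene was. No cause was tested.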
